A study of Mus musculus with 12 samples.

Results

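The interferon response genes are a set of 33 genes that cells switch on after interferon signalling, and their transcripts were followed here in liver. Members were chosen by name, with earlier results of these data known. Each is represented by the probe set annotated with its symbol, and by the brightest one where a symbol had several. Of the 33 genes 32 had a probe set, 1 each, out of 19505 genes measured, and Ifi44 was not analysed here. Livers came from adult male C57BL/6J mice, 4 to 5 months old, kept at 23 °C on a standard chow diet. Of the 12 mice, 6 were born to wild-type (WT) dams (arrays 1 to 6) and 6 to dams lacking uncoupling protein 1, the heat-producing protein of brown fat mitochondria (UCP1-KO dams, arrays 7 to 12). All sires and, by the labels, all 12 offspring were heterozygous, so the groups differ in the mother's genotype, and the parent that passed on the allele without Ucp1 differs with it. The labels name no litters, so some mice may be littermates and p-values measure only the spread between these 12 mice. Values are log2 signals, so a difference of 1 is a doubling, and every difference is the mean of arrays 7 to 12 minus the mean of arrays 1 to 6, with its 95% interval from limma.

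Type I interferons bind a receptor made of Ifnar1 and Ifnar2, whose kinases Jak1 and Tyk2 phosphorylate STAT2. STAT2 and IRF9 act in the complex ISGF3, which binds interferon-stimulated response elements in promoters and raises antiviral genes. In the liver, hepatocytes, Kupffer cells and endothelial cells can all respond, and some genes of the response, including ISGF3's own subunits, are kept at a low steady level without infection. In whole liver, fewer cells of a type and less RNA per cell cannot be told apart.

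Liver identity was clear: all 9 measured hepatocyte markers lay above the negative control median on every array, with their mean at 18.11 to 18.40 in offspring of WT dams and 18.32 to 18.40 in offspring of UCP1-KO dams. Signal strength was judged against the negative controls, by their median on the same array. That median was 6.39 ± 0.21 (SD, n = 6) and 6.21 ± 0.14 (n = 6) in the respective groups (exact two-sided permutation p = 0.119), with WT-dam arrays 3 to 6 at 6.41 to 6.62 and WT-dam arrays 1 and 2 at 6.14. Of the 32 members, 16 lay above it on all 12 arrays and 6 on no array. On the first principal component of all probe sets, WT-dam arrays 1 and 3 to 6 lay at -24.1 to -14.4. WT-dam array 2, at 1.2, lay among UCP1-KO-dam arrays 7, 9 and 12, at -2.45 to 1.71. The component thus followed the dam group in large part, with UCP1-KO-dam arrays 8, 10 and 11 at its far end (26.3 to 37.5). Named differences of at least 0.1 in size are also given without these 3 arrays, or without WT-dam arrays 3 to 6. This was done where leaving them out moved the difference by over 1.5 times. The first of these fits keeps only UCP1-KO-dam arrays 7, 9 and 12 in that group, and the second only WT-dam arrays 1 and 2. Both are therefore less precise.

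Most interferon response genes had a lower mean signal in liver when the dam was UCP1-KO, but 0 of 32 passed the test over all genes (limma adjusted p = 0.0596 to 0.997). Over all 22206 probe sets 8 passed, 0.0360%. In the members, 29 of 32 differences lay below 0 (28 after quantile normalization and 30 after median centring), against 43.2% of all probe sets. The 29 include all 6 members that lay above the negative control median on no array. The median difference of the 32 members was -0.23, against 0.03 for all probe sets. At an unadjusted p under 0.05, 10 members were lower, 31.2%, where 6.00% of all probe sets were, and 0 were higher, where 7.08% of all probe sets were. These 10 were Shfl, Irf9, Trim30a, Dhx58, Xaf1, Usp18, Oasl1, Oas2, Stat2 and Rtp4, of which Oasl1 and Oas2 exceeded the negative control median on 0 of 12 arrays. The members were chosen with earlier results of these data known, answer to the same factors and in many cases vary together between mice. These shares therefore describe the set and are not a test of it. The median was -0.20 to -0.34 with any single array left out, -0.32 without WT-dam arrays 3 to 6 and -0.33 without UCP1-KO-dam arrays 8, 10 and 11.

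**Figure D1:**
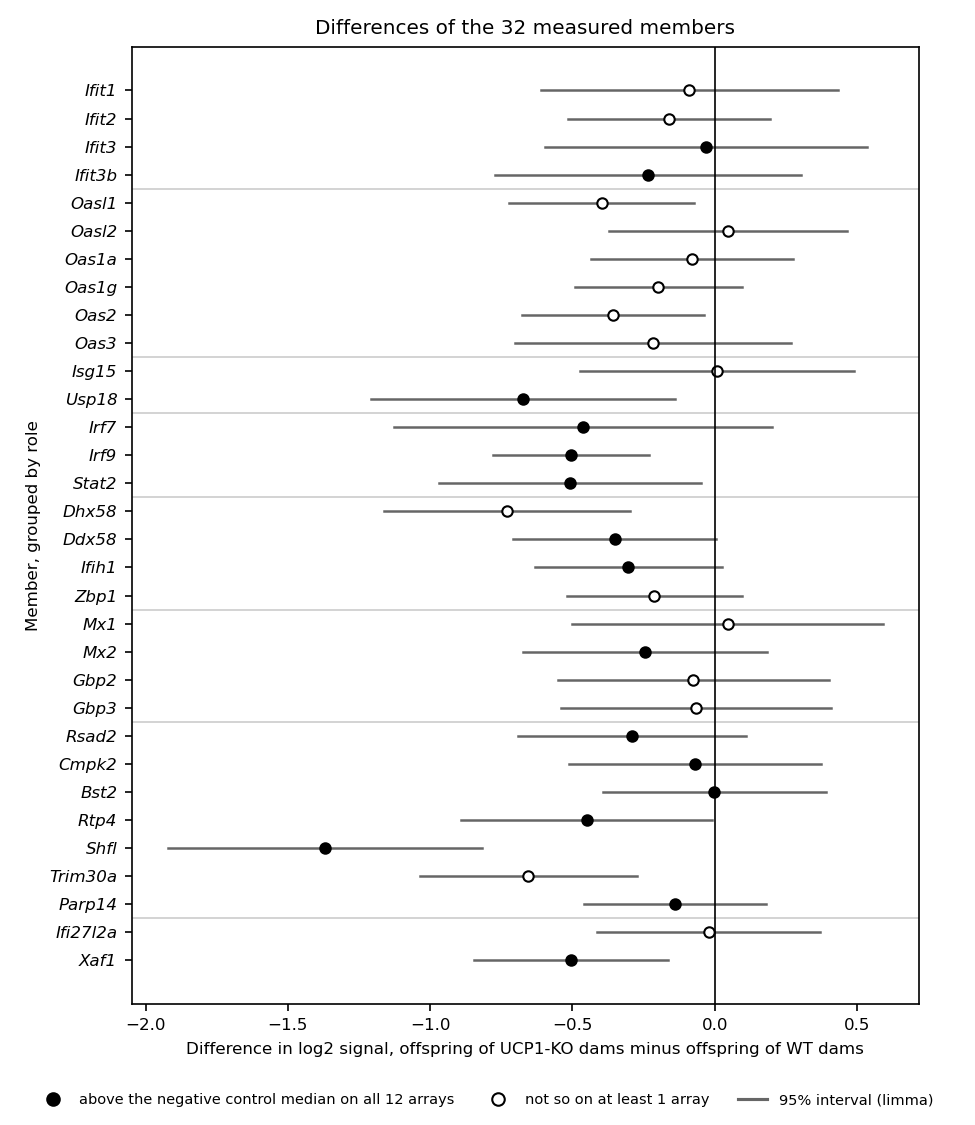
Difference in log2 signal (UCP1-KO-dam minus WT-dam arrays) for the 32 measured members, grouped by role, with 95% intervals from limma over 12 arrays; filled points lay above the negative control median on all 12 arrays. Points of 29 members lie left of 0, Shfl furthest at -1.37, while Isg15, Mx1 and Oasl2 lie at or right of it, of which Isg15 moved to -0.036 after quantile normalization and -0.021 after median centring.

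Promoter sequence was read from RefSeq windows of build GRCm38.p6, which run from 250 bases before to 50 bases after each gene's start, for 22 of the 32 members. The core of the interferon-stimulated response element was searched as GAAA, any 2 bases, then GAAA, on both strands, with overlapping matches counted separately. It occurred in the windows of 15 of 22 members, 68.2%, against 3.99% of all 27025 genes in the table. A match is a description of the letters, not a bound site. Members with a match to the response element core had a median difference of -0.20 (14 of 15 below 0) and those without one in the window -0.40 (6 of 7 below 0). The stretches below show the match, in capitals and 5′ to 3′ along the gene's strand, in the 6 members of smallest p that held one, and in Isg15, which was added because its window held the most matches. For Ddx58 and Ifih1 the match lay after the start, and 30 bases are shown.
Trim30a: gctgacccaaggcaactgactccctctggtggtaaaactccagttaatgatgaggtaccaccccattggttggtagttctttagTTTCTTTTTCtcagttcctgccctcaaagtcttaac
Stat2: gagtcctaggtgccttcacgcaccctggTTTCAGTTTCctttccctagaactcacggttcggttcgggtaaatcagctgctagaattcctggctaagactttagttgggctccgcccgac
Ddx58: agTTTCGATTTCctatggccagccggctag
Ifih1: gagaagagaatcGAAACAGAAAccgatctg
Rsad2: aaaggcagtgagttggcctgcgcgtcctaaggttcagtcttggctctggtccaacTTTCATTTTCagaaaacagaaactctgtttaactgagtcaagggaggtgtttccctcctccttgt
Oas1g: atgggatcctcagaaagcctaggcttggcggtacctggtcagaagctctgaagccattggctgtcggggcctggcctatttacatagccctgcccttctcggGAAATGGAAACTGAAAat
Isg15: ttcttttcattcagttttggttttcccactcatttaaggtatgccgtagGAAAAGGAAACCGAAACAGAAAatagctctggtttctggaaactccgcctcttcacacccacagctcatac
These stretches lie at chr7:104465194-104465313 (minus strand) for Trim30a, chr10:128270248-128270367 (plus strand) for Stat2, chr4:40239796-40239825 (minus strand) for Ddx58, chr2:62646206-62646235 (minus strand) for Ifih1, chr12:26456508-26456627 (minus strand) for Rsad2, chr5:120887614-120887733 (minus strand) for Oas1g and chr4:156200826-156200945 (minus strand) for Isg15. The match began 222 bases before the start in Stat2, 120 in Rsad2, 78 in Isg15, 36 in Trim30a and 18 in Oas1g, and at bases 3 and 33 after the start in Ddx58 and Ifih1. Isg15 had 3 overlapping matches in a row and Oas1g 2. Stat2, with 1 match, and Isg15, with 3, had differences of -0.51 and 0.01.

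The 3 signalling and transcription members all lay below 0 (median -0.51), and 0 passed. Irf9, the DNA-binding subunit of ISGF3, read 8.67, 8.94, 9.26, 8.98, 8.61 and 8.75 on arrays 1 to 6 and 8.45, 8.47, 8.24, 8.30, 8.35 and 8.36 on arrays 7 to 12. All 6 UCP1-KO-dam arrays lay below all 6 WT-dam arrays, and Irf9 was the 1 member of 32 whose groups did not overlap, which 0.423% of all probe sets did in the lower direction. The difference was -0.51 (-0.78 to -0.23, limma adjusted p = 0.129). The UCP1-KO-dam values lay close together, with an SD of 0.09 against 0.24 (n = 6 each).

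Stat2, the transactivating partner of IRF9, read 11.44, 11.12, 12.66, 12.25, 11.49 and 11.87 on arrays 1 to 6 and 11.33, 11.45, 10.79, 11.54, 11.41 and 11.25 on arrays 7 to 12, a difference of -0.51 (-0.97 to -0.05, limma adjusted p = 0.328). High values sat on WT-dam arrays 3, 4 and 6, and WT-dam arrays 1, 2 and 5 lay within the range of the other group. Without WT-dam arrays 3 to 6, whose negative controls were bright, the difference was 0.015, and with the negative control median in the fit -0.14. Irf7, the factor that amplifies interferon production, had a difference of -0.46 (-1.13 to 0.20, adjusted p = 0.556). Its lowest, median and highest values were 8.04, 9.11 and 9.86 in offspring of WT dams and 7.60, 8.38 and 9.59 in offspring of UCP1-KO dams, so the groups overlapped over most of their range, and the difference was -0.28 without WT-dam array 2 but -0.996 without WT-dam arrays 3 to 6.

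Shfl had the largest difference of all members. It encodes Shiftless, an interferon-induced inhibitor of the ribosomal frameshifting that some viruses use. Its signal was 11.81, 11.42, 13.17, 12.87, 12.30 and 12.73 on arrays 1 to 6 and 11.52, 10.83, 10.53, 11.53, 10.91 and 10.76 on arrays 7 to 12, with means of 12.38 ± 0.67 and 11.01 ± 0.42 (SD, n = 6 each). On WT-dam arrays 1 and 3 to 6 it lay above every UCP1-KO-dam array, while WT-dam array 2 lay just under UCP1-KO-dam arrays 7 and 10. The difference was -1.37 (-1.92 to -0.82), a signal 2.58-fold higher in offspring of WT dams, and it did not pass (limma adjusted p = 0.0596). It passed without WT-dam array 2 (adjusted p = 0.0115), without UCP1-KO-dam array 7 (adjusted p = 0.0355) or with the dimmer 50% of probe sets left out (adjusted p = 0.0488). In these fits 112, 54 and 32 probe sets passed, respectively. Shfl did not pass with any other single array left out (adjusted p = 0.0673 to 0.178) or after quantile normalization (adjusted p = 0.0872). Without WT-dam arrays 3 to 6, which leaves only WT-dam arrays 1 and 2 in that group, the difference shrank to -0.60 (adjusted p = 0.703). In that fit 0 of all probe sets passed, so its adjusted p says little about Shfl. With the negative control covariate the difference was -0.89 (adjusted p = 0.135).

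Other antiviral effectors spanned a wide range. Trim30a, a TRIM family protein that restrains Toll-like receptor signalling, read 6.65, 7.54, 6.90, 6.72, 6.80 and 7.17 on arrays 1 to 6 and 5.94, 6.55, 5.96, 6.48, 6.79 and 6.12 on arrays 7 to 12, a difference of -0.66 (-1.04 to -0.28, limma adjusted p = 0.147). All but UCP1-KO-dam array 11 lay below the whole WT-dam range, though the signal was near the negative controls and above them on 10 of 12 arrays. Rtp4, a receptor transporter protein, read 7.91, 8.71, 8.36, 8.53, 8.70 and 8.40 on arrays 1 to 6 and 8.41, 8.07, 7.07, 7.72, 8.43 and 8.21 on arrays 7 to 12, a difference of -0.45 (-0.89 to -0.01, adjusted p = 0.373). UCP1-KO-dam array 9 was its lowest, and without it the difference was -0.27.

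Rsad2, which encodes viperin, an enzyme that makes a chain-terminating nucleotide, had -0.29 (-0.69 to 0.11, adjusted p = 0.536). It read 7.89, 8.16, 7.67, 8.32, 8.03 and 7.94 on arrays 1 to 6 and 7.72, 7.68, 7.31, 7.51, 8.62 and 7.44 on arrays 7 to 12. UCP1-KO-dam array 11 was the highest of all 12, and the difference was -0.47 without it and -0.52 without UCP1-KO-dam arrays 8, 10 and 11. Parp14, an ADP-ribosyltransferase, had -0.14 (-0.46 to 0.18), -0.018 without UCP1-KO-dam array 10 and -0.076 without UCP1-KO-dam arrays 8, 10 and 11. Array 10, at 7.22, was the lowest of values that were 7.87, 8.06, 7.75, 7.83, 8.07 and 8.23 on arrays 1 to 6 and 7.92, 7.93, 7.84, 7.22, 8.15 and 7.92 on arrays 7 to 12. Cmpk2, a mitochondrial nucleotide kinase, had -0.07 (-0.51 to 0.37), and 0.12 without WT-dam array 2. Bst2, or tetherin, which holds budding virus particles at the cell surface, had -0.0023 (0.0060 after quantile normalization) with an interval of -0.39 to 0.39, which leaves out differences of over 1.31-fold either way. Its lowest, median and highest values were 13.42, 13.71 and 14.06 in offspring of WT dams and 13.34, 13.58 and 14.45 in offspring of UCP1-KO dams, and the ranges overlapped almost wholly.

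**Figure D2:**
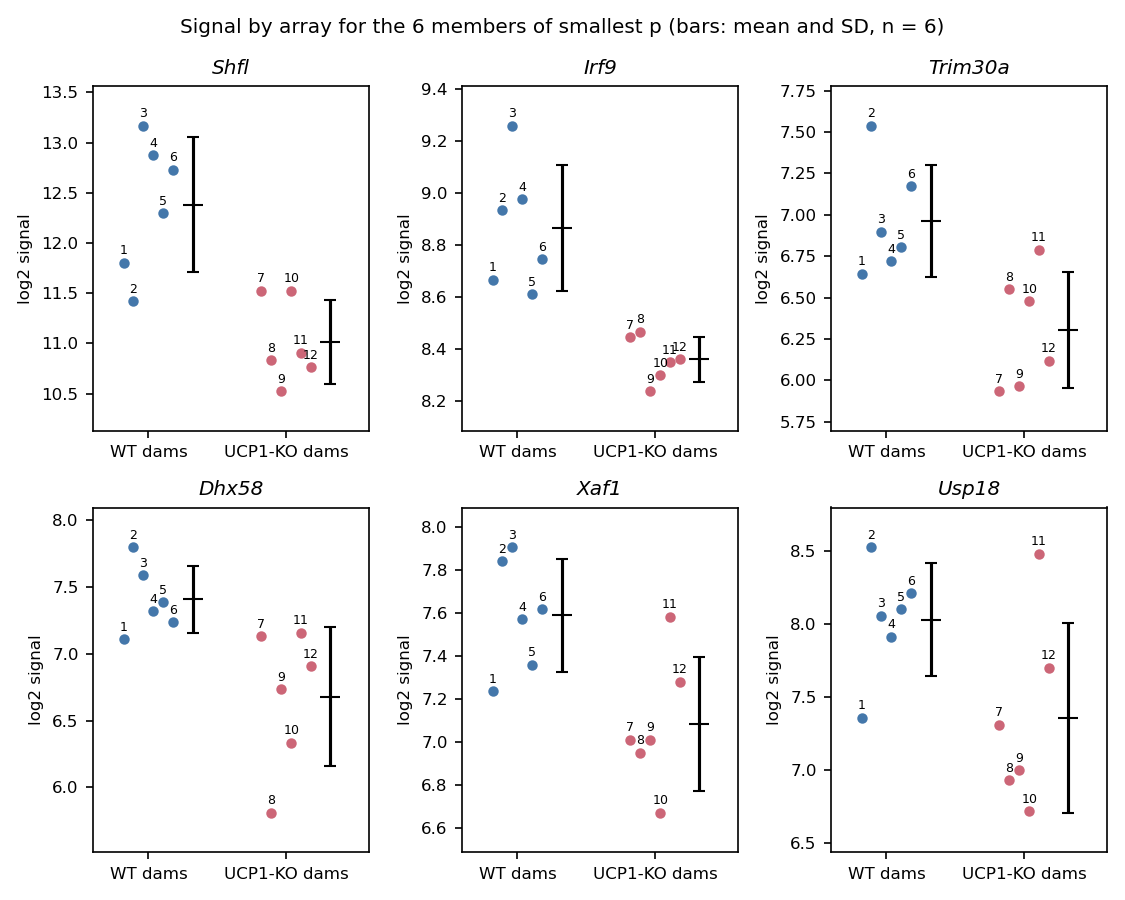
Log2 signal on each array (points, numbered) for the 6 members of smallest p, with the mean and SD of each group (bars, n = 6); each vertical axis has its own range and does not start at 0. The groups separate fully for Irf9 and overlap for the other 5, where UCP1-KO-dam array 11 often reaches the WT-dam range.

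All 4 cytosolic nucleic acid sensors had differences below 0, and 0 of 4 passed. Dhx58 encodes LGP2, the RIG-I-like helicase that tunes the other members of its family. It read 7.11, 7.80, 7.59, 7.32, 7.39 and 7.24 on arrays 1 to 6 and 7.13, 5.81, 6.73, 6.33, 7.16 and 6.91 on arrays 7 to 12, a difference of -0.73 (-1.16 to -0.30, limma adjusted p = 0.154). Its lowest values were on UCP1-KO-dam arrays 8 and 10, and only arrays 7 and 11 of that group reached the WT-dam range. On arrays 8 and 10 the signal lay below the negative control median, which it exceeded on 10 of 12 arrays. Without UCP1-KO-dam arrays 8, 10 and 11 the difference was -0.48. Ddx58, which encodes the RNA sensor RIG-I, had -0.35 (-0.71 to 0.0049, adjusted p = 0.389), and -0.21 without UCP1-KO-dam arrays 8, 10 and 11. Ifih1, which encodes MDA5, the sensor of long double-stranded RNA, had -0.30 (-0.63 to 0.03, adjusted p = 0.422). Of the UCP1-KO-dam arrays 5 lay below the whole WT-dam range for Ifih1, and array 11, at 11.61, above it. Zbp1, a sensor of Z-form nucleic acids, had -0.21 (-0.52 to 0.09; -0.13 without UCP1-KO-dam arrays 8, 10 and 11) and lay above the negative control median on 5 of 12 arrays.

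Of ISG15 and the protease that removes it, 0 of 2 passed. Isg15 encodes a ubiquitin-like protein attached to other proteins during the response. It read 5.33, 5.77, 5.98, 5.83, 5.67 and 5.92 on arrays 1 to 6 and 5.82, 5.60, 5.19, 5.41, 6.96 and 5.58 on arrays 7 to 12, a difference of 0.01 (-0.47 to 0.49, limma adjusted p = 0.993). The sign of so small a difference turned with the scaling (-0.036 after quantile normalization, -0.021 after median centring). UCP1-KO-dam array 11 was the 1 array on which Isg15 exceeded the negative control median, and without it the difference was -0.23. Usp18, the protease that removes ISG15 and also dampens the receptor, read 7.36, 8.53, 8.06, 7.91, 8.10 and 8.21 on arrays 1 to 6 and 7.31, 6.93, 7.00, 6.72, 8.48 and 7.70 on arrays 7 to 12, a difference of -0.67 (-1.21 to -0.14, adjusted p = 0.263). Here WT-dam array 1, at 7.36, lay among the UCP1-KO-dam values, while arrays 11 and 12, at 8.48 and 7.70, reached the WT-dam range. Whether the differences of Isg15 and Usp18 differ from each other was not tested.

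The IFIT family, whose proteins bind foreign RNA ends and block its translation, had 4 of 4 measured members below 0 (3 after quantile normalization, when Ifit3 had 0.0099) and 0 called. Ifit3b had -0.23 (-0.77 to 0.30), Ifit2 -0.16 (-0.52 to 0.19), Ifit1 -0.09 (-0.61 to 0.43) and Ifit3 -0.03 (-0.60 to 0.54). Ifit3 read 8.88, 9.80, 8.96, 9.15, 9.17 and 9.24 on arrays 1 to 6 and 9.14, 9.02, 8.45, 8.81, 10.61 and 8.99 on arrays 7 to 12. Array 11 stood 1.47 above the next array of its group, and without it Ifit3 had -0.32, Ifit3b -0.47 and Ifit1 -0.34. Without UCP1-KO-dam array 9, the lowest, Ifit3 had 0.11 and Ifit3b -0.034. Ifit3b had -0.42 and Ifit2 -0.33 without WT-dam arrays 3 to 6, and -0.56 and -0.29 without UCP1-KO-dam arrays 8, 10 and 11. Ifit3 and Ifit3b are close copies in sequence, so their probe sets may share signal. Ifit1 exceeded the negative control median on 6 of 12 arrays and Ifit2 on 1.

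The oligoadenylate synthetases make the second messenger that activates the RNA-degrading enzyme RNase L. Their signals were dim: of 6 measured members, Oasl1, Oas1a, Oas1g, Oas2 and Oas3 exceeded the negative control median on 0 of 12 arrays, so their expression in these livers is not shown and their differences are no measure of a change in transcript. Oasl1 read 4.49, 4.00, 4.16, 4.56, 4.05 and 4.12 on arrays 1 to 6 and 3.85, 3.64, 3.93, 3.79, 4.32 and 3.47 on arrays 7 to 12 (difference -0.40, -0.72 to -0.07, limma adjusted p = 0.277). It lay below the background controls (group means 5.00 and 5.02) on every array, and so did the group means of Oas3 and Ifi27l2a. Oas2 read 5.00, 5.29, 5.47, 5.92, 5.19 and 5.78 on arrays 1 to 6 and 5.11, 5.11, 5.01, 5.23, 4.97 and 5.09 on arrays 7 to 12 (difference -0.36, -0.68 to -0.04, adjusted p = 0.324), and its higher values sat on WT-dam arrays 3, 4 and 6. Its difference was -0.059 without WT-dam arrays 3 to 6. Oas1g had -0.20, Oas3 -0.22 and Oas1a -0.08. Without UCP1-KO-dam arrays 8, 10 and 11 Oas1g had -0.32 and Oas3 -0.54, and without WT-dam arrays 3 to 6 Oas1g had -0.042. The 1 brighter member, Oasl2, had 0.05 (-0.37 to 0.46), which was -0.19 with the negative control covariate and -0.35 without WT-dam arrays 3 to 6. Oas1a read 5.04, 5.77, 5.80, 5.77, 5.89 and 5.98 on arrays 1 to 6 and 5.78, 5.75, 5.09, 5.62, 5.85 and 5.69 on arrays 7 to 12, with WT-dam array 1 and UCP1-KO-dam array 9 lowest.

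Of the large GTPases 3 of 4 lay below 0, and 0 were called. Mx2 had -0.25 (-0.68 to 0.19), Mx1 0.05 (-0.50 to 0.59), Gbp2 -0.08 (-0.55 to 0.40) and Gbp3 -0.07 (-0.54 to 0.41). Mx proteins are dynamin-like restriction factors, of which Mx1 is defective in most inbred laboratory mice, and Gbp2 and Gbp3 act on the vacuoles of intracellular pathogens. Mx2, highest on WT-dam array 3 at 9.17, turned to 0.13 without WT-dam arrays 3 to 6 and had -0.57 without UCP1-KO-dam arrays 8, 10 and 11. Gbp2 turned to 0.11 without WT-dam array 2, Gbp3 to 0.13 without UCP1-KO-dam array 10, and Mx1 to -0.11 without UCP1-KO-dam array 11. The 2 remaining members differed from each other in size. Xaf1, which opposes the apoptosis inhibitor XIAP, read 7.24, 7.84, 7.91, 7.57, 7.36 and 7.62 on arrays 1 to 6 and 7.01, 6.95, 7.01, 6.67, 7.58 and 7.28 on arrays 7 to 12, a difference of -0.51 (-0.85 to -0.16, limma adjusted p = 0.194). UCP1-KO-dam arrays 7 to 10 lay below all WT-dam arrays, while arrays 11 and 12 lay within their range. Ifi27l2a, dimmer than the background controls in both groups, had -0.02.

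**Figure D3:**
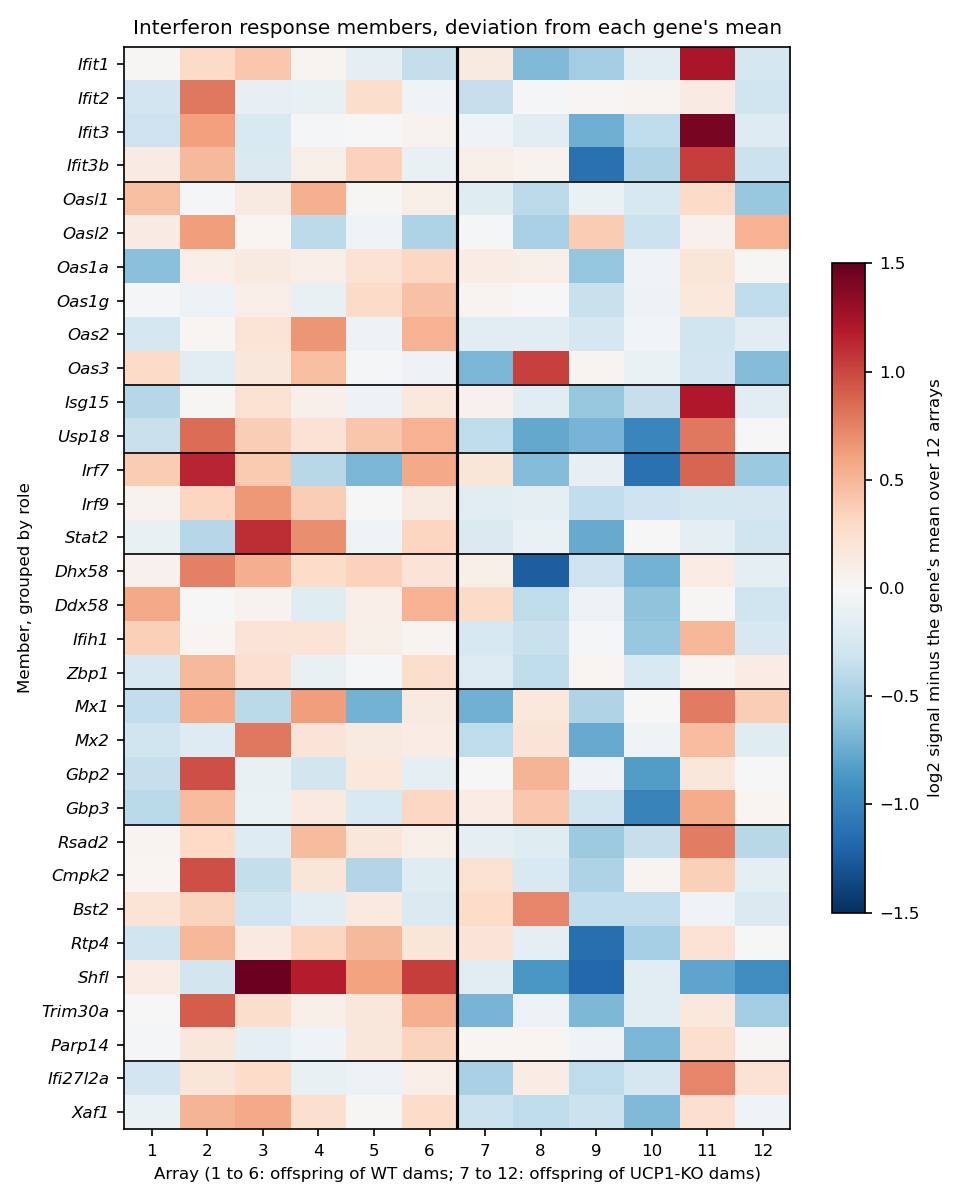
Log2 signal of each of the 32 members (lines, grouped by role) on each of the 12 arrays (columns) as the deviation from that gene's mean over all arrays; red is above and blue below the mean, and the colour scale ends at 1.5 either way. WT-dam array 2 and UCP1-KO-dam array 11 are red for most members, UCP1-KO-dam arrays 9 and 10 blue.

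Many members, though not all, moved together from mouse to mouse within both groups. No correlation between members was computed. The median over the 32 members of each array's deviation from the gene's mean was -0.03, 0.33, 0.16, 0.13, 0.06 and 0.15 on WT-dam arrays 1 to 6, and -0.09, -0.15, -0.37, -0.32, 0.23 and -0.19 on UCP1-KO-dam arrays 7 to 12. The group values were 0.13 ± 0.12 and -0.15 ± 0.21 (SD, n = 6 each), and they overlapped through array 11 alone, which lay above 5 of the 6 WT-dam arrays. UCP1-KO-dam array 11 had the highest value of its group for 22 of 32 members, and WT-dam array 2 for 14 of 32. WT-dam array 2 was also the lowest of its group for 5 members. Shfl and Stat2 went against the set, with deviations of -0.28 and -0.43 on WT-dam array 2 and -0.79 and -0.14 on UCP1-KO-dam array 11. UCP1-KO-dam array 9 had the lowest value of its group for 12 members and array 10 for 8, while WT-dam array 1 was lowest in its group for 15. Of the 32 members, 26 lay above their own mean on array 11, 3 on array 10 and 4 on array 9. Macrophage markers followed the same arrays at the top: the mean over 10 Kupffer cell markers was 10.71 on WT-dam array 2 and 10.01 on UCP1-KO-dam array 11, the highest of each group, and 9.17 to 9.89 on the other 10 arrays. Their part in the members' values on these arrays was not tested. Without array 11 the median difference of the members was -0.34, and 30 of 32 lay below 0.

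**Figure D4:**
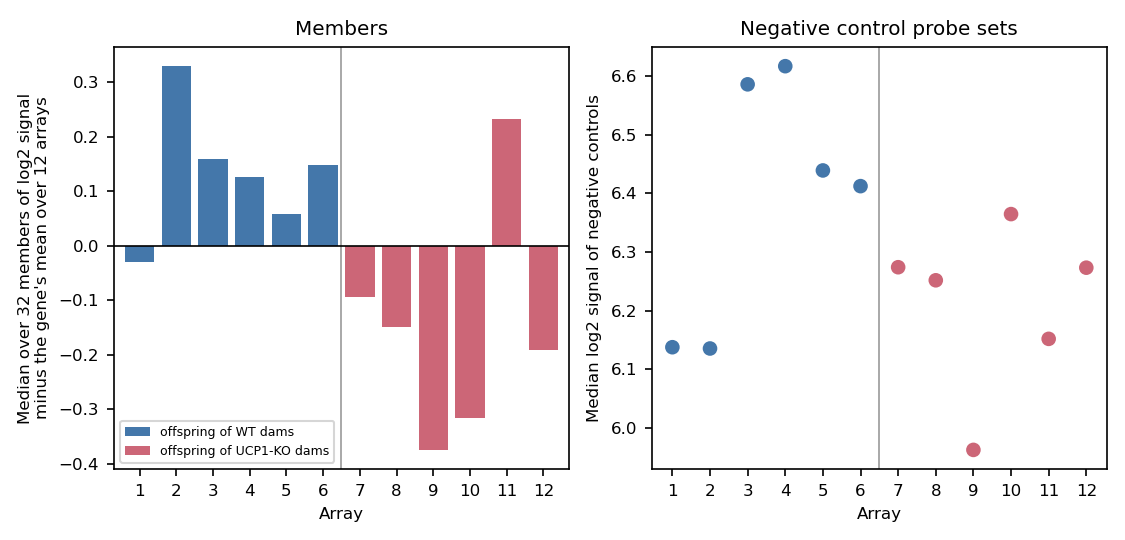
Left, the median over 32 members of the log2 signal minus each gene's mean over 12 arrays, as a bar per array from 0; right, the negative controls' median log2 signal on each array, on an axis that does not start at 0. In the left panel 5 of 6 WT-dam arrays lie above 0 and 5 of 6 UCP1-KO-dam arrays below it; in the right panel WT-dam arrays 3 to 6 are brightest.

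Beyond the members, 120 of 133 further interferon pathway genes were measured, and 0 passed in either direction (limma adjusted p = 0.0639 to 0.997). Across lists that went different ways, 65 differences lay below and 55 above 0 (71 and 49 after median centring, 66 and 54 after quantile normalization). On the deposited values 54.2% lay below 0, where 43.2% of all probe sets did. Their median was -0.03, against 0.03 for all probe sets. At an unadjusted p under 0.05, 16 were lower and 7 higher, where 6.00% and 7.08% of all probe sets were. The groups did not overlap, with the UCP1-KO-dam arrays lower, for 5 of them, where 0.423% of all probe sets did the same: Pml, Oas1b, Lgals3bp, Irf3 and Ifi35. Ifi35, outside the naming rule and named after its values were seen, had -0.47.

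Ligands and receptors lay mostly above 0, where 43.2% of all probe sets lay below it with a median of 0.03. Whether ligands and receptors differ in this from the members was not tested. Of 13 interferon genes 10 lay above 0 (8 under either other scaling), and 9 exceeded the negative control median on no array. Ifna5 had 0.43, Ifnl2 0.30, Ifnz 0.21 and Ifnb1 0.15, the last 2 above the negative control median on 0 of 12 arrays and Ifnl2 on 6. Without WT-dam arrays 3 to 6 Ifnl2 had 0.056, Ifnz 0.34 and Ifnb1 -0.11, and without UCP1-KO-dam arrays 8, 10 and 11 Ifna5 had 0.26 and Ifnz 0.41. Of 9 receptor and kinase genes 7 lay above 0 (6 after median centring): the receptor chains Ifnar2 had 0.37 (0.03 to 0.72, adjusted p = 0.344), Ifngr1 0.34 (0.01 to 0.67, adjusted p = 0.37), Ifnlr1 0.22 and Ifngr2 0.15. Ifnlr1 exceeded the negative control median on 0 of 12 arrays. Ifnar1 had -0.08 (-0.35 to 0.19) and the kinase gene Tyk2 -0.18. Without WT-dam arrays 3 to 6 Ifngr2 had -0.28, Ifnar2 0.036 and Tyk2 -0.025, and without UCP1-KO-dam arrays 8, 10 and 11 Ifnlr1 had 0.084 and Ifngr2 0.099. Among the negative regulators 5 of 7 lay above 0 (6 after quantile normalization), with the phosphatase genes Ptpn6 at 0.34 and Ptpn11 at 0.30, the STAT inhibitor gene Pias1 at 0.24, and Socs1, below the background controls on all 12 arrays, at 0.18. Ptpn6 had 0.22, Ptpn11 0.085 and Socs1 0.092 without WT-dam arrays 3 to 6.

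Transcription factors outside the members went both ways. Irf3, which is activated by the RNA and DNA sensors to start interferon transcription, read 11.17, 11.28, 11.42, 11.41, 11.24 and 11.31 on arrays 1 to 6 and 10.95, 10.72, 11.03, 10.98, 10.88 and 11.12 on arrays 7 to 12, a difference of -0.36 (-0.60 to -0.12, limma adjusted p = 0.194), with no overlap. Irf8, a factor of myeloid cells, had 0.32, Irf5 -0.31, Nmi, a STAT-interacting protein, -0.23, and Irf1, the early interferon gamma target, -0.05 (-0.38 to 0.28). Irf8 exceeded the negative control median on 4 of 12 arrays and Irf5 on 2.

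Further interferon-stimulated genes lay more often below 0 than above it. Of 56 genes 39 lay below 0 (38 after quantile normalization, median -0.07), 11 of them and 2 of those above 0 at an unadjusted p under 0.05, where 6.00% and 7.08% of all probe sets were. Pml, the organiser of nuclear bodies, read 9.84, 9.78, 10.06, 10.07, 10.30 and 9.99 on arrays 1 to 6 and 9.37, 9.65, 8.91, 9.32, 9.33 and 9.27 on arrays 7 to 12, a difference of -0.70 (-0.99 to -0.41, limma adjusted p = 0.0639), which passed without WT-dam array 2 (adjusted p = 0.035) and with the dimmer probe sets left out (adjusted p = 0.0488). Lgals3bp, a secreted glycoprotein, had -1.04 (-1.52 to -0.56, adjusted p = 0.0891). It had -0.55 (adjusted p = 0.516) without UCP1-KO-dam arrays 8, 10 and 11, a fit in which 0 of all probe sets passed. Oas1b, an OAS protein linked to flavivirus resistance, had -0.81 (-1.16 to -0.45, adjusted p = 0.079; 0.0414 without WT-dam array 2). Slfn5, a Schlafen family gene, had 0.61 (0.25 to 0.98, adjusted p = 0.154), the other way.

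Of 15 genes of the interferon gamma response 9 lay below 0 (10 after median centring). Gbp4, a guanylate-binding protein, had -0.87 (-1.44 to -0.30, adjusted p = 0.185) and Gbp7 -0.40. The chemokine genes Cxcl9 and Cxcl10, whose products attract T cells, had 0.76 (-0.04 to 1.56) and -0.39 (-0.75 to -0.02). Cxcl10 exceeded the negative control median on 6 of 12 arrays. WT-dam array 2 was the highest of all arrays for Cxcl9, at 11.20, and without it the difference was 1.16. The Cxcl9 difference was 0.020 without WT-dam arrays 3 to 6 and 0.43 without UCP1-KO-dam arrays 8, 10 and 11. Among 13 genes of nucleic acid sensing 6 lay below 0 (7 after median centring), with the RNA-activated kinase gene Eif2ak2 at -0.30, the DNA pathway adaptor gene Sting1 at -0.36 (-0.18 without WT-dam array 2), the RNA sensor gene Tlr7 at 0.45 and Aim2 at 0.37. Sting1 exceeded the negative control median on 1 of 12 arrays and Aim2 on 2. Eif2ak2 had -0.17, Sting1 -0.65 and Tlr7 0.14 without WT-dam arrays 3 to 6.

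**Figure D5:**
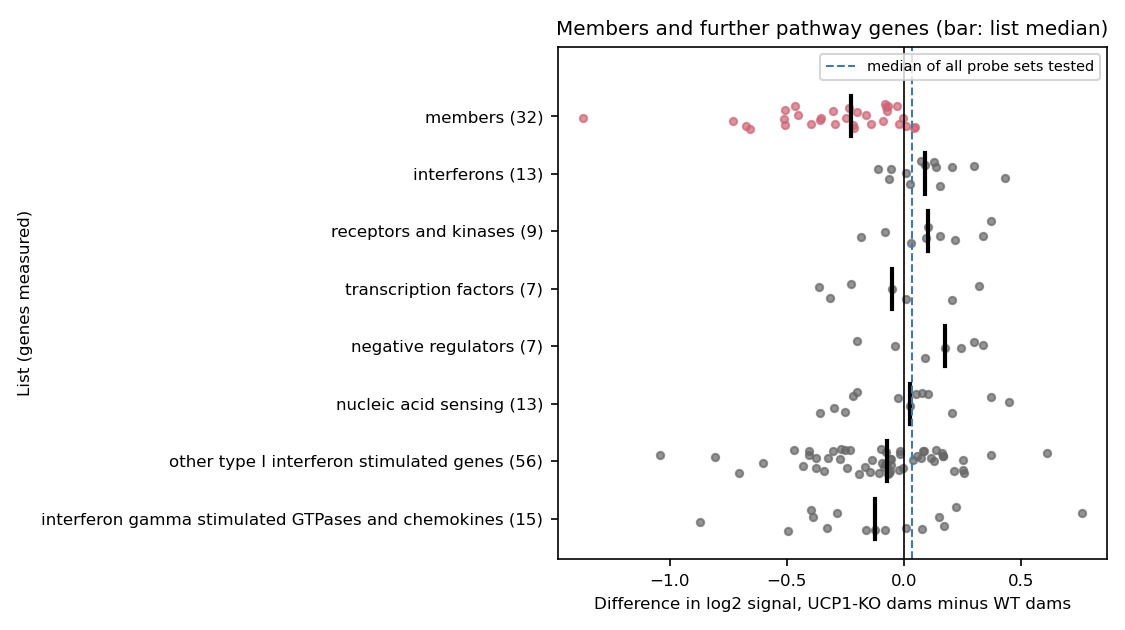
Difference in log2 signal of each measured gene (points) for the 32 members and 7 lists of further pathway genes, with the list median (bar) and the median of all 22206 probe sets (dashed line, 0.03). The members' median lies at -0.23, that of the other type I interferon-stimulated genes at -0.07 and that of receptors and kinases at 0.10.

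Markers of cell types that could carry these transcripts were compared between the groups, and 0 in any of the 11 lists passed. The mean over 10 Kupffer cell markers ranged from 9.17 to 10.71 in offspring of WT dams and from 9.31 to 10.01 in offspring of UCP1-KO dams, with 4 of 10 genes below 0 and 0 of 10 under the negative controls. The mean over 7 sinusoidal endothelial markers ranged from 10.53 to 10.88 and from 10.65 to 10.90, over genes with differences from -0.74 to 0.94 and 1 lower and 1 higher at an unadjusted p under 0.05. That over 7 stellate cell markers ranged from 8.21 to 8.76 and from 8.41 to 8.78. Plasmacytoid dendritic cells, the strongest producers of type I interferon, had 3 of 6 markers under the negative controls in both groups, with a mean of 6.77 to 7.16 and 6.81 to 7.15. T and NK cell markers (9 of 10), B cell markers (4 of 4), neutrophil markers (6 of 6), monocyte and dendritic cell markers (7 of 8) and cholangiocyte markers (2 of 4) were under the negative controls in both groups. The T and NK cell list ranged from -0.55 (Cd4) to 0.67, with 1 gene lower and 1 higher at an unadjusted p under 0.05. Its smallest limma adjusted p was 0.0794. For 1 of its genes under the negative controls the groups did not overlap, with the UCP1-KO-dam arrays higher. The share of all probe sets that did so in this direction was not counted. The erythroid list had 1 measured gene, Alas2, at 12.01 to 12.63 and 12.15 to 12.63. The part of any of these cell types in the members' differences was not tested.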

How the data were processed

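Liver RNA of 12 mice was measured on 1 gene-level array each. The deposited log2 signals were made by the authors. The submitters' processing notes name the Transcriptome Analysis Console and RMA, or robust multi-array averaging. Program versions and the genome build are not given in the sources used here. RMA corrects background, aligns the arrays' distributions and summarises probes, which compresses differences of dim probe sets.

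Columns were matched to mice by sample identifier and groups taken from the labels. The 6640 control rows were left out, and 22206 probe sets, 19572 with 1 symbol, entered a limma 3.58.1 model in R 4.3.3 with dam genotype as its only term (lmFit and eBayes, two-sided), which was tested on simulated data. P-values were adjusted by Benjamini-Hochberg over all 22206, and an adjusted p under 0.05 was a call. Every adjusted p in the text comes from this fit or, where named, from an alternative to it. Negative control medians were compared by an exact permutation test over 924 labellings.

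The members, their roles and all lists were chosen with earlier results of these data known. Named outside the members are the up to 4 genes of smallest p in each pathway list, Irf1, Irf3 and the interferon receptor genes. Full values per array are given for the 10 members of smallest p and members with an array far from its group. Alternatives were quantile normalization, median centring, leaving out the dimmer 50% of probe sets, averaging the probe sets of a symbol, a variance trend with robust estimation, the negative control median as a covariate, and leaving out each array, WT-dam arrays 3 to 6 or UCP1-KO-dam arrays 8, 10 and 11. Protein sequences were not used here, and a second motif search is not reported here. The number of arrays limits the precision.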

Additional observations from a re-analysis of the deposited data

Results flagged for a closer look

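In 128 groups of 6 arrays examined (the members, the further genes named above and the array medians of the members), 9 held 1 array far from the other 5 by Dixon's criterion, which chance meets in about 1 of 20 groups. Of these, 6 were in members. UCP1-KO-dam array 11 was high for Rsad2, at 8.62 against 7.31 to 7.72 on the other UCP1-KO-dam arrays, for Ifit3, at 10.61 against 8.45 to 9.14, and for Isg15, at 6.96 against 5.19 to 5.82. UCP1-KO-dam array 10 was low for Parp14, at 7.22 against 7.84 to 8.15. Oas1a was low on WT-dam array 1, at 5.04 against 5.77 to 5.98, and on UCP1-KO-dam array 9, at 5.09 against 5.62 to 5.85. Among further genes WT-dam array 2 was high for Cxcl9, at 11.20 against 8.49 to 9.21, and for Sting1, at 6.89 against 5.67 to 6.07, and UCP1-KO-dam array 8 was high for Ifnar2, at 14.93 against 14.21 to 14.40.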

How the results depend on the processing

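No paired analysis was possible because the groups share no replicate numbers (1 to 6 and 7 to 12). Of 632 values of members under the alternatives, 575 kept their direction and their side of the threshold, 3 newly passed (Shfl each time) and 54 in 13 genes changed direction; for the further named genes the counts were 604, 3 and 5 in 3 genes, of 612. Leaving out the dimmer probe sets, averaging the probe sets of a symbol and the variance trend left each of these differences as it was. Under those alternatives only the adjusted p could move, so their values kept their direction by construction. The median of the members stayed below 0 under every alternative, though averaging and the variance trend could not move it. Scaling moved the median of all probe sets from 0.03 to 0.0094 (quantile normalization) or 0.0040 (median centring). The 8 probe sets called became 32 without the dimmer 50% (with 1 member, Shfl, and 1 further pathway gene, Pml), 22 with a variance trend, 2 with the negative control covariate, and 0 without WT-dam arrays 3 to 6 or without UCP1-KO-dam arrays 8, 10 and 11. The fits with 0 calls keep only WT-dam arrays 1 and 2, or UCP1-KO-dam arrays 7, 9 and 12, in the reduced group. Their loss of calls cannot be told apart from the loss of arrays. Leaving out 1 array gave 1 to 112 calls: 112, 3 and 2 without WT-dam arrays 2, 3 and 6, and 54, 1, 4 and 5 without UCP1-KO-dam arrays 7, 8, 9 and 11. Members called then ranged from 0 to 1 and further pathway genes from 0 to 2 (Pml and Oas1b, without WT-dam array 2). After quantile normalization the calls split into 3 higher and 9 lower, against 1 and 7.

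Stat2, at -0.51, and smaller differences changed sign, for causes that were not tested. Quantile normalization gave Ifit3 0.0099, Isg15 -0.036 and Bst2 0.0060, and median centring Isg15 -0.021. With the covariate Mx2 had 0.0068, Oas1a 0.11, Oasl2 -0.19, Ifi27l2a 0.0076 and Ifngr2 -0.026. Without WT-dam arrays 3 to 6 Stat2 had 0.015, Mx2 0.13, Oas1a 0.22, Oasl2 -0.35, Mx1 -0.082, Ifi27l2a 0.040, Ifnb1 -0.11 and Ifngr2 -0.28. Without UCP1-KO-dam arrays 8, 10 and 11 Mx1 had -0.25 and Isg15 -0.22. With 1 array left out the difference ran from -0.21 to 0.028 for Oas1a, -0.34 to 0.034 for Ifit1, -0.16 to 0.12 for Cmpk2, -0.18 to 0.11 for Gbp2, -0.18 to 0.13 for Gbp3, -0.052 to 0.18 for Oasl2, -0.11 to 0.19 for Mx1, -0.17 to 0.074 for Ifi27l2a, -0.32 to 0.11 for Ifit3, -0.23 to 0.12 for Isg15, -0.15 to 0.072 for Bst2 and -0.14 to 0.022 for Irf1. Signal over background limits the 6 members never above the negative controls.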

Other observations

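Several members lie next to each other among protein-coding genes in the RefSeq table of GRCm38.p6. Rsad2 had -0.29 beside Cmpk2 with -0.07, Oasl1 -0.40 beside Oasl2 with 0.05, Oas2 -0.36 beside Oas3 with -0.22, Oas1g -0.20 beside Oas1a with -0.08, and Ifit2 -0.16 beside Ifit3 with -0.03. Of these, Oasl1, Oas2, Oas3, Oas1g and Oas1a never exceeded the negative controls. None of these pairs was tested for a difference between its genes. The neighbours of Shfl (-1.37) were Rdh8, a retinol dehydrogenase gene, with 0.36 (limma adjusted p = 0.242), and Angptl6, an angiopoietin-like gene, with 0.31 (adjusted p = 0.397).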
